A study of Mus musculus with 8 samples.

Results

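Cytosolic ribosomal protein genes encode the proteins of the ribosome that works in the cytoplasm. Members were chosen by symbol alone: GENCODE M21 protein_coding genes whose symbol is Rpl or Rps followed by a digit, or Rpsa, Rplp0, Rplp1 or Rplp2, without the Rps6k kinases and without symbols holding -ps. The rule found 86 genes among 52325 gene identifiers, and 84 of them had at least 0.5 TPM (transcript abundance scaled for transcript length and library total) in 4 or more libraries. In all, 17177 genes passed that filter and were tested. Sorted by symbol alone, the 84 comprised 50 genes of the large subunit, 3 of which form its stalk, and 33 genes of the small subunit. The other was Rps19bp1, whose symbol fits the rule although its product is a binding partner of a ribosomal protein.

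The study asked which genes differ in cartilage cells that lack the microRNA gene Mir140. RNA was sequenced from costal chondrocytes (rib cartilage cells, freed with collagenase) of 7-day-old mice, 4 wild-type and 4 Mir140-null libraries, on the strain background C57BL/6J. Total RNA went into a stranded mRNA library kit and was read as single-end 75-base reads. The labels give a lower limit of reads per library, and the exact depth is not held in TPM. The deletion was made with CRISPR/Cas9 in zygotes of mixed C57BL/6 and CBA/ca background, carriers were backcrossed to C57BL/6J, and both the wild-type and the null line descend from crosses of heterozygous Mir140+/- mice. Line and genotype therefore cannot be told apart. Nothing states that each library came from a separate animal, so a p-value here measures the spread between samples.

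Ribosomes carry out protein synthesis. Each is built in the nucleolus from ribosomal RNA and a set of proteins needed in matched amounts, and the messenger RNAs for those proteins typically begin with a C followed by a run of pyrimidines through which the mTOR pathway and LARP1 control their translation. Many ribosomal protein genes have left processed copies across the genome, and inherited defects of some cause anaemia or skeletal malformation, while chondrocytes depend on heavy synthesis of matrix proteins.

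Mir140 (ENSMUSG00000065439, chr8:107551244-107551313, plus strand, mm10) was the targeted gene. Its level was 0 TPM in all 4 wild-type libraries, 0 TPM in 3 Mir140-null libraries, and the library labelled Mir140-null replicate 2 had 8.86 TPM. Taken alone, the value of that library goes against its label. But the annotated gene is shorter than the sequenced reads, and it had 0 TPM in every wild-type library. The level of Mir140 therefore cannot check any label, that of this library included, and whether the library is mislabelled was not tested. Mice of the line were genotyped by PCR of ear notches and Sanger sequencing, which were not used here. Directions below rest on the labels, and the leading counts are given with and without the library labelled Mir140-null replicate 2. Wwp2, which hosts Mir140 in an intron, had 353, 459, 332 and 378 TPM in the wild-type libraries and 261, 349, 394 and 358 TPM in the Mir140-null libraries. The groups overlapped, with a log2 fold change of -0.16 and a limma adjusted p of 0.487.

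The chondrocyte label was checked with 11 markers, none of which had a mean under 1 TPM. Their summed level was 77308, 77598, 62316 and 76133 TPM in the wild-type libraries and 46902, 64002, 47505 and 63301 TPM in the Mir140-null libraries, led by Col2a1 at a mean of 49600 TPM. By limma, 1 of the 11 (Acan) was called higher and 3 (Col11a1, Col9a1 and Hapln1) were called lower in Mir140-null. In such bulk samples fewer cells of a type and less RNA per cell cannot be told apart.

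Markers of other cells also moved between libraries. The 7 fibroblast markers summed to 6042, 3547, 6443 and 3782 TPM in the wild-type libraries and to 886, 1064, 5649 and 4278 TPM in the Mir140-null libraries, with Col1a2 the most abundant at a mean of 1118 TPM. Mir140-null replicate 1 and the library labelled Mir140-null replicate 2 were the low ones. The same 2 libraries had the fewest genes at 0.5 TPM or more, 15800 and 16056, against 16991 to 17950 in the other 6. The 11 skeletal muscle markers summed to 68.6 to 105 TPM in wild-type and 34.6 to 59.8 TPM in Mir140-null, without overlap, led by Tnnt3 at a mean of 49.4 TPM. For the 7 erythroid markers, led by Hbb-bs at a mean of 485 TPM, the sums ran from 646 to 1854 TPM and from 257 to 1725 TPM. Sums for the 6 osteoblast markers (led by Alpl) ran from 14.6 to 25.8 TPM and from 4.56 to 21.6 TPM. Sums for the 8 myeloid markers (led by Cd68) ran from 24.6 to 43.2 TPM and from 20.5 to 37.0 TPM. The 5 endothelial markers stayed under 29 TPM in sum, the 6 lymphoid markers under 2.4 TPM and the 4 adipocyte markers under 0.7 TPM in every library, with Cfd at 0 in all 8. Of the 33 of these other markers that were tested, limma called 1 higher (Pdgfra) and 4 lower (Dcn, Tnni2, Itgam and Lyz2) in Mir140-null, beside 10.5% and 6.4% of all genes tested. The part of these cells in the results on ribosomal protein genes was not tested.

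The levels of the 84 tested members, as means over the 8 libraries, spanned 0.680 to 7291 TPM, with quartiles at 382, 665 and 1126 TPM. For the genes alone, without the copies described below, the most abundant were Rpl13a at 7291 TPM, Rps15a at 5900 TPM and Rpl18 at 3708 TPM. The least abundant were Rpl39l at 0.680 TPM, Rps19bp1 at 8.08 TPM and Rpl7l1 at 23.8 TPM. Rpl39l was just inside the filter of 0.5 TPM. Outside it were Rpl3l at a mean of 0.0988 TPM and Rpl10l at 0.00749 TPM, paralogues that other tissues use more.

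Several members that every ribosome needs had low values on their own. Rpl5, a large-subunit protein that binds 5S ribosomal RNA, had a mean of 37.2 TPM, and Rps12 of the small subunit had 79.4 TPM. The reads of a gene can be shared out to transcripts that resemble it, so the coding sequence of each member was compared with all annotated transcripts of other genes. A near-identical copy was a gene outside the members with a transcript at least 90% identical over at least 80% of the coding sequence of a member. Each copy was counted once, for the member it matched best. This comparison was chosen after seeing the data. It found 916 copies, 894 of them annotated as pseudogenes, and 266 with a mean of at least 0.5 TPM. Of the 84 tested members 78 had 1 or more copies counted for them and 6 had none (Rps27 among them, because the copies it shares with the identical Rps27rt were counted for Rps27rt), with a median of 7.5 and up to 74 (Rpl21).

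Copies took a large part of the signal. The pseudogene Gm14303, a copy of Rps29, had a mean of 20503 TPM while Rps29 itself had 644 TPM. Gm10443, a copy of Rps28, had 11219 TPM beside 422 TPM for Rps28, and Rpl38-ps2 had 7184 TPM beside 333 TPM for Rpl38. In all, 29 members held under 50% of the TPM summed over them and their copies, 9 held under 10%, and 42 (Rps27 among them) held over 90%. With the copies added, Rpl5 came to 1082 TPM and Rps12 to 3261 TPM, and the quartiles over members became 869, 1152 and 1701 TPM. The highest members were then Rps29 at 21174 TPM, Rps28 at 11666 TPM and Rpl39 at 8304 TPM. The number of members between 500 and 2500 TPM went from 48 to 64 of 84. Across members, which are not independent replicates, coding length and mean TPM had a Spearman rho of 0.16 for the genes alone and -0.27 with copies (n = 84 genes).

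**Figure D1:**
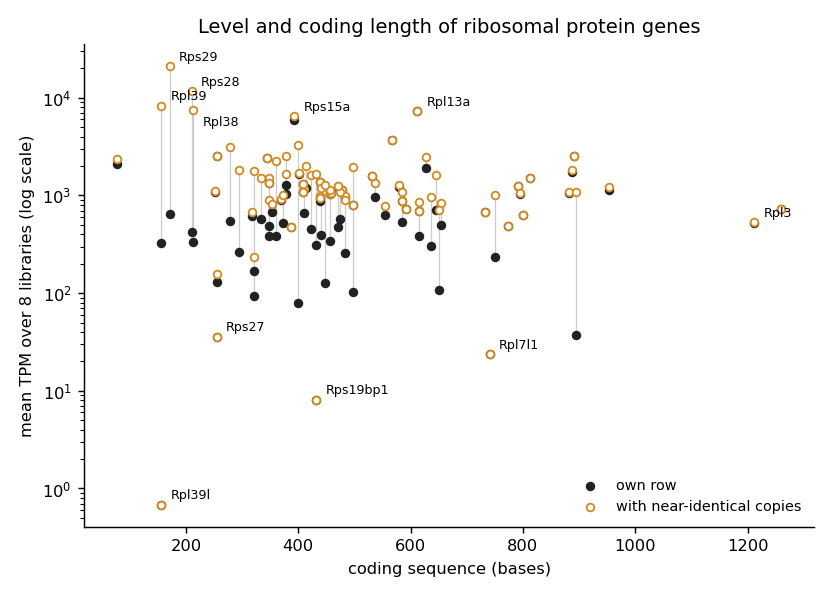
Mean TPM over 8 libraries (log axis) against the length of the coding sequence in bases for the 84 tested ribosomal protein genes, alone (filled) and with near-identical copies added (open), a grey line joining the points of a gene. Rps12, Rps29 and Rpl5 moved the farthest up on this axis when copies were added, while Rpl39l, Rps19bp1 and Rpl7l1 stayed lowest with Rps27.

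Summed over members, the level was 74365, 82843, 82676 and 77445 TPM in the wild-type libraries and 90089, 78450, 76843 and 75202 TPM in the Mir140-null libraries. Mir140-null replicate 1 was the highest, and the groups overlapped. The near-identical copies summed to 80268, 88580, 86715 and 83284 TPM in wild-type and to 84976, 73592, 75628 and 75683 TPM in Mir140-null, again with overlap. Members and copies together made up 16.1% of all TPM on average, from 15.5% to 17.1% in wild-type and from 15.1% to 17.5% in Mir140-null.

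The groups did not overlap in how this sum was divided. The members' own share of the sum with copies was 48.1%, 48.3%, 48.8% and 48.2% in the wild-type libraries and 51.5%, 51.6%, 50.4% and 49.8% in the Mir140-null libraries. Every Mir140-null library was above every wild-type library. Members with the most abundant copies weigh most in this share. With copies, Rps29 had 21754, 25295, 22669 and 22690 TPM in wild-type and 20017, 17248, 20129 and 19590 TPM in Mir140-null, without overlap. Its log2 fold change was -0.26 (limma adjusted p of 0.0954). Those of Rps28 and Rpl39 with copies were -0.12 and -0.23, with overlap. Over all 84 members with copies, 39 were above 0 and 45 below. Copies held at least 10% of the sum for 42 members, and for 31 of these the own share was higher in Mir140-null. It was higher without overlap for 8 (Rpl10, Rpl10a, Rpl12, Rpl24, Rpl5, Rps23, Rps27a and Rps29) and lower without overlap for 0. No test was run on these shares.

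TPM share a fixed total, so the mitochondrially encoded genes are given beside these sums. They came to 40566, 49388, 69850 and 49954 TPM in wild-type and 87966, 84083, 100924 and 85517 TPM in Mir140-null, without overlap, or 5.24% and 8.96% of all TPM on average. As a percentage of the TPM outside the mitochondrial genome, members and copies held 16.1% to 18.2% in wild-type and 16.5% to 19.2% in Mir140-null. With TPM taken over protein-coding genes outside the mitochondrial genome, limma called 1884 genes higher and 1015 lower in Mir140-null. Among members it then called Rpl36al, Rpl10 and Rpl36 higher, at adjusted p of 0.0168, 0.0367 and 0.0445. The median log2 fold change of members was 0.06. Beyond this rescaling, the part of the mitochondrial transcripts in the other results was not tested.

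**Figure D2:**
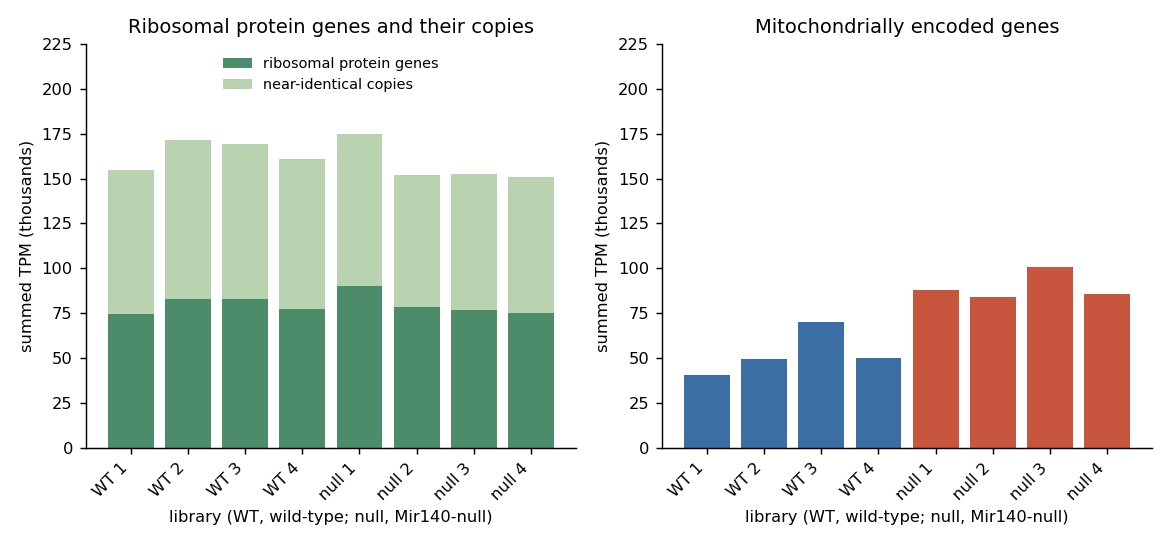
Summed TPM in each of the 8 libraries, for ribosomal protein genes stacked with their near-identical copies (left) and for mitochondrially encoded genes (right). The left bars overlapped between groups, and the right bars were higher in every Mir140-null library.

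Of all genes tested, limma on log2(TPM + 1) called 16.9% at an adjusted p under 0.05, 10.5% higher and 6.4% lower in Mir140-null. Of the 84 tested members it called 3 higher (Rpl36al, Rpl10 and Rpl36). Rpl39l, lower in Mir140-null, passed the filter through its wild-type libraries alone, so it had to differ and is not counted as called. The counts over all genes tested still hold Rpl39l and any other gene that passed the filter through 1 group alone. Without the library labelled Mir140-null replicate 2 limma called 0 members, and 779 and 423 of all genes in place of 1797 and 1100. Leaving out any other library gave 793 to 1553 higher and 419 to 1214 lower. Across the other 7 leave-one-out fits, 1 to 4 members were called higher. The count of 3 became 1 without any of wild-type replicates 1, 3 and 4 or Mir140-null replicate 1. The share of higher genes among all called was 62.0%, and it was 50.9% after median-ratio scaling of the libraries and 73.1% among genes with a mean of at least 5 TPM.

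The median log2 fold change of the 84 was 0.05, beside -0.01 over all genes tested, and the values ran from -0.68 to 0.64. The median was 0.03 after median-ratio scaling, -0.02 with sample quality weights, -0.03 with a factor taken from genes of large p, and -0.02 to 0.07 when 1 library was left out, below 0 without wild-type replicate 1 or Mir140-null replicate 1. For 62 members the log2 fold change lay within 0.2 of 0, as for 5748 of the 17177 genes tested. It was above 0 for 51 and below 0 for 33, and 12 (Rpl39l included) had an unadjusted p under 0.05, as had 5821 of the 17177. The groups did not overlap for 12 members (Rpl39l included), while over all genes tested they did not overlap for 25.9%.

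The 2 subunits can be set side by side. Of the 50 large-subunit genes, 3 were called higher and 10 (Rpl39l included) had an unadjusted p under 0.05, with a median log2 fold change of 0.07. Of the 33 small-subunit genes limma called 0 in either direction, 1 had an unadjusted p under 0.05, and the median was 0.00. Whether the subunits differ was not tested.

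With copies added to each member, limma called 17.3% of 16934 genes, 10.7% higher and 6.6% lower, and among the members 1 higher (Rpl36al), Rpl39l again not counted. The median log2 fold change became -0.01, and the value of 73 members in place of 62 lay within 0.2 of 0. The sign changed for 18 members. The median size of the log2 fold change went from 0.10 to 0.08.

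Rpl36al (ENSMUSG00000049751, chr12:69182731-69184083, minus strand, mm10) encodes a form of the large-subunit protein eL42, whose other form comes from Rpl36a on the X chromosome. It had 62.1, 79.8, 73.8 and 76.7 TPM in the wild-type libraries and 128, 119, 108 and 95.7 TPM in the Mir140-null libraries. All 4 Mir140-null libraries were above all wild-type libraries, and the log2 fold change was 0.61 (SE 0.12, n = 4 and 4) with a limma adjusted p of 0.0178. Without the library labelled Mir140-null replicate 2 the adjusted p was 0.0531, and it ran from 0.0202 to 0.0488 in the other 7 leave-one-out fits. With its copies, chiefly Rpl36a-ps3, the gene had 179, 189, 220 and 198 TPM in wild-type and 288, 308, 271 and 214 TPM in Mir140-null. The lowest Mir140-null library then fell inside the wild-type range, with a log2 fold change of 0.45 and a limma adjusted p of 0.0496.

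Rpl10 (ENSMUSG00000008682, chrX:74270812-74273135, plus strand, mm10) encodes uL16, which joins the large subunit late and completes its catalytic centre. It had 559, 671, 585 and 479 TPM in the wild-type libraries and 955, 709, 738 and 956 TPM in the Mir140-null libraries. The groups did not overlap, and the log2 fold change was 0.55 (SE 0.15, n = 4 and 4) with a limma adjusted p of 0.0398. The call held without wild-type replicate 2 or Mir140-null replicate 3, and the adjusted p was 0.0547 to 0.0986 without any other library. Rpl10-ps3, identical to its coding sequence, had a mean of 745 TPM. With copies added Rpl10 had 1527, 1620, 1559 and 1493 TPM in wild-type and 1887, 1533, 1604 and 1684 TPM in Mir140-null, which overlapped, with a log2 fold change of 0.11 and a limma adjusted p of 0.418.

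Rpl36 (ENSMUSG00000057863, chr17:56613416-56614243, plus strand, mm10) encodes the large-subunit protein eL36. Its values were 447, 531, 577 and 521 TPM in the wild-type libraries and 810, 757, 619 and 631 TPM in the Mir140-null libraries. Mir140-null replicate 1 and the library labelled Mir140-null replicate 2 were highest and the groups did not overlap. The log2 fold change was 0.44 (SE 0.12, n = 4 and 4) with a limma adjusted p of 0.0474. Among leave-one-out fits the call held only without Mir140-null replicate 3, and the adjusted p was 0.0552 to 0.115 without any other library. Copies added left the groups apart at 570 to 627 TPM and 631 to 863 TPM, with a log2 fold change of 0.31 and a limma adjusted p of 0.109.

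Rpl39l (ENSMUSG00000039209, chr16:10170226-10174911, plus strand, mm10) encodes a variant of eL39, best known from the testis. Its values were 0.826, 1.51, 1.42 and 0.583 TPM in the wild-type libraries and 0.197, 0.212, 0.340 and 0.362 TPM in the Mir140-null libraries. The Mir140-null libraries were lower without overlap, at levels near the filter. The log2 fold change was -0.68 with a pseudocount of 1 TPM and -1.59 with 0.1 TPM, so its size depends on the pseudocount. No p is given, because only the wild-type libraries carried the gene past the filter, and no copy was found. Its partner Rpl39, with 254 to 361 TPM in wild-type and 288 to 418 TPM in Mir140-null, was not called (log2 fold change 0.12, limma adjusted p of 0.621).

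With replicate number as a block in the model, 0 of the 3 higher genes were called, at limma adjusted p of 0.0624 (Rpl36al), 0.109 (Rpl10) and 0.121 (Rpl36). Under a factor taken from genes of large p, 0 of the 3 were called, at 0.0557 (Rpl36al), 0.1103 (Rpl10) and 0.152 (Rpl36). Median-ratio scaling, and testing without a filter, kept the call of Rpl36al alone. Rpl36 was not called with sample quality weights (0.0693), nor Rpl10 with named pseudogenes added (0.422). Quantile normalization kept all 3, and a factor from residuals kept all 3 and called 8 members higher.

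Other members had larger or like differences that limma did not call, and some are given here. Rpl15 had a log2 fold change of 0.36 (limma adjusted p of 0.0632) without overlap, and 0.15 with copies, where the groups overlapped. Rpl8, for which no copy was found, had a log2 fold change of 0.25 (limma adjusted p of 0.114) without overlap. Rpl12, of the ribosomal stalk base, had 79.4, 85.6, 76.9 and 80.1 TPM in wild-type and 164, 157, 91.5 and 94.1 TPM in Mir140-null. Mir140-null replicate 1 and the library labelled Mir140-null replicate 2 were the high ones, the groups did not overlap, and the log2 fold change was 0.60 with a limma adjusted p of 0.0828. Gm10275, a copy of Rpl12 identical over its coding sequence, had a mean of 1837 TPM. With copies Rpl12 had 1979 to 2053 TPM in wild-type and 1635 to 2130 TPM in Mir140-null, and the log2 fold change was -0.10.

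Rps27a encodes a fusion of ubiquitin with a small-subunit protein. It had 346, 464, 465 and 376 TPM in wild-type and 610, 535, 505 and 482 TPM in Mir140-null, without overlap, a log2 fold change of 0.37 and a limma adjusted p of 0.0824. With copies the groups overlapped at 1240 to 1354 TPM and 1141 to 1409 TPM, and the log2 fold change was -0.09. Rps19bp1, which is no ribosomal protein, had the highest log2 fold change of the 84, 0.64 (Rpl39l, at -0.68, was farther from 0), with 6.01, 6.03, 5.85 and 5.91 TPM in wild-type and 14.4, 10.2, 10.1 and 6.10 TPM in Mir140-null (limma adjusted p of 0.0800). Mir140-null replicate 1 was highest, and replicate 4 was next to the wild-type values.

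**Figure D3:**
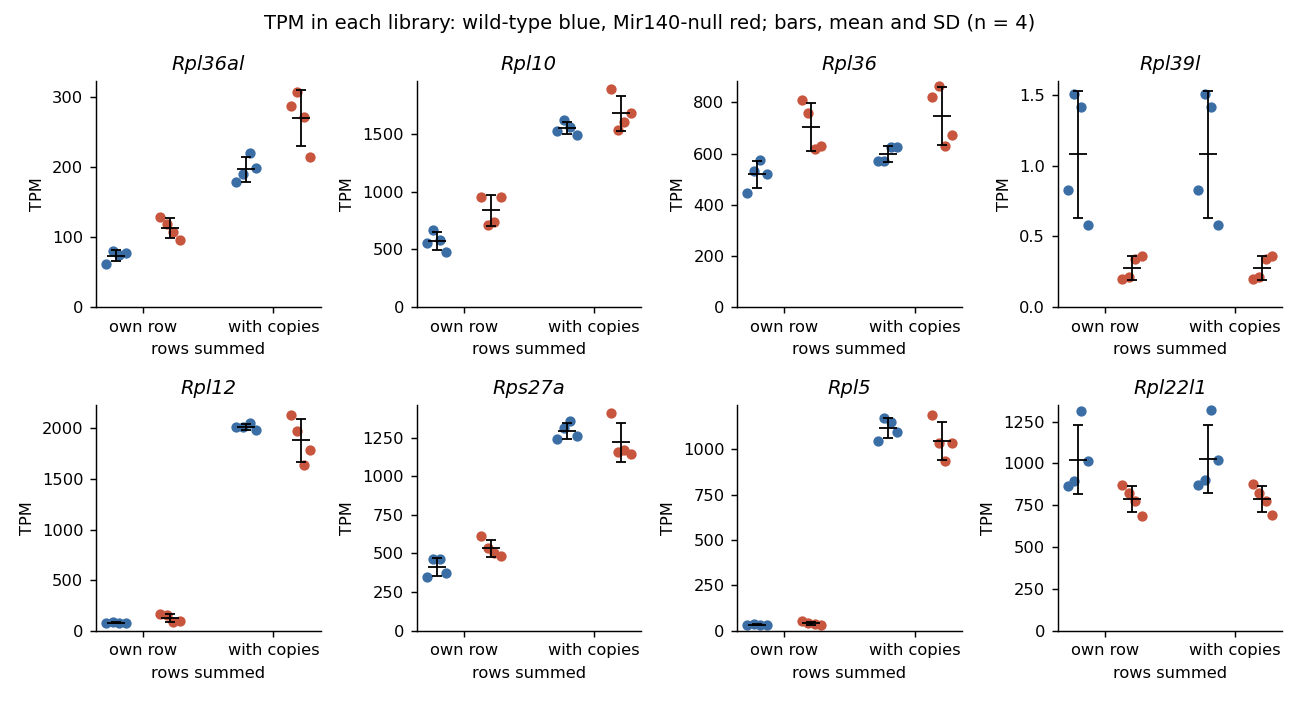
TPM in each library of 8 ribosomal protein genes, for the gene alone and with near-identical copies added (wild-type blue, Mir140-null red; bars, mean and SD, n = 4 a group). Rpl12, Rps27a and Rpl10 alone lay higher in Mir140-null without overlap, and with copies their groups overlapped.

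Members tied to blood or skeletal disease, or to body patterning, were looked at as a group of 6 named by role. Rpl5 and Rpl11 bind 5S ribosomal RNA and restrain Mdm2 when ribosome assembly is disturbed. Rpl5 had 32.6, 36.8, 31.4 and 32.4 TPM in wild-type and 52.1, 41.2, 36.7 and 33.9 TPM in Mir140-null. Mir140-null replicates 3 and 4 lay inside the wild-type range, and the log2 fold change was 0.28 with a limma adjusted p of 0.214. With copies, of which Gm15500 had a mean of 1043 TPM, it was -0.09. Rpl11 had a log2 fold change of 0.06, Rpl13, mutated in a skeletal dysplasia, 0.05, Rpl38, needed for vertebral patterning in the mouse, 0.15, Rps19, the gene most often mutated in Diamond-Blackfan anaemia, 0.02 and Rps26 0.15. Limma adjusted p for these 5 ranged from 0.444 to 0.943.

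The 3 stalk genes, Rplp0, Rplp1 and Rplp2, recruit elongation factors and had log2 fold changes of 0.08, 0.08 and 0.08, with limma adjusted p of 0.815, 0.650 and 0.641. Rplp0 ranged the most widely of them relative to its level, from 787 to 1340 TPM in wild-type and from 848 to 1318 TPM in Mir140-null. Rps6, the phosphorylated target of S6 kinase, had 210 to 248 TPM in wild-type and 209 to 280 TPM in Mir140-null (log2 fold change 0.07, limma adjusted p of 0.714). Rpsa, also known as a laminin receptor, had 1674 to 1907 TPM in wild-type and 1552 to 1833 TPM in Mir140-null (log2 fold change -0.09, limma adjusted p of 0.521).

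Paralogue pairs differed in how they divided their level, read with copies added because the pairs share sequence. Rpl22l1 encodes a paralogue of Rpl22, and the coding sequences were 68.2% identical. Per 100 TPM of Rpl22, Rpl22l1 had 202, 203, 260 and 219 in the wild-type libraries and 160, 171, 174 and 150 in the Mir140-null libraries. The groups did not overlap, wild-type replicate 3 was highest, and no test was run on the ratio. Rpl22l1 alone had 867, 895, 1316 and 1016 TPM in wild-type and 869, 821, 773 and 688 TPM in Mir140-null (log2 fold change -0.36, limma adjusted p of 0.126), and the value of Mir140-null replicate 1 lay inside the wild-type range.

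For Rpl36al and Rpl36a, whose coding sequences were 87.9% identical, Rpl36al per 100 TPM of Rpl36a was 10.8, 10.8, 10.8 and 11.8 in wild-type and 14.8, 18.4, 16.5 and 12.7 in Mir140-null. All 4 Mir140-null libraries were higher, the library labelled Mir140-null replicate 2 the most. Rpl36a alone was not called, at a log2 fold change of -0.06. For Rpl7l1 and Rpl7 (54.9% identical) the ratio was 1.41, 1.37, 1.31 and 1.39 in wild-type and 1.88, 1.86, 1.86 and 1.70 in Mir140-null, without overlap. Rpl7l1 alone had 20.4 to 21.7 TPM in wild-type and 23.3 to 31.2 TPM in Mir140-null, a log2 fold change of 0.31 and a limma adjusted p of 0.0898.

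Rps27 and Rps27rt have coding sequences 100% identical over 255 bases, and Rps27rt held almost all of the signal, with a mean of 2516 TPM beside 35.9 TPM for Rps27. Their sum with copies was 2435, 2516, 2832 and 2470 TPM in wild-type and 3056, 2433, 2316 and 2405 TPM in Mir140-null. Mir140-null replicate 1 was highest and the groups overlapped. Rps27l (76.1% identical to Rps27) held 5.42 to 6.92 TPM per 100 of Rps27rt in wild-type and 5.30 to 7.25 in Mir140-null. Rpl3l and Rpl10l did not pass the filter and were not tested. Rpl3, the partner of Rpl3l, had a log2 fold change of -0.07 and a limma adjusted p of 0.540. Rps4x had a log2 fold change of -0.13 and a limma adjusted p of 0.381, and Rps4l, its paralogue in rodents, is not in the M21 protein_coding annotation.

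The start regions of members are shown because a run of pyrimidines at the start is what the messenger RNAs of this family are known for. Of the 84 tested members, 64 matched an entry in the RefSeq promoter table (GRCm38.p6). For each, the longest uninterrupted run of C or T overlapping the 11 bases from 5 before to 5 after the annotated start was found on the gene's strand, and for a gene with several entries the entry with the longest run was used. A run of 8 or more bases was present in 24 of 64 members, or 37.5%, beside 11.4% of 27025 genes with an entry and 12.3% of the 10993 tested among them. The median run was 6 bases in members and 4 bases over all genes with an entry, and the first base was C in 34.4% and 16.8%. A match is a description of the annotated start and not a measured start. Windows of 40 bases around it follow, with the run in capitals, in the order of the results, for a choice of genes described above; Rpl36 did not match an entry.
Rpl36al (chr12:69184048-69184087, minus strand): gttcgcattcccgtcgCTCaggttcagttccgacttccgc
Rpl10 (chrX:74270796-74270835, plus strand): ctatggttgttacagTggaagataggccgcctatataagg
Rpl39l (chr16:10170208-10170247, plus strand): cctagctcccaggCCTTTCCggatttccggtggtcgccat
Rpl22l1 (chr3:28805488-28805527, plus strand): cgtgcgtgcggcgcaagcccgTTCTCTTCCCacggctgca
Rps27 (chr3:90213629-90213668, minus strand): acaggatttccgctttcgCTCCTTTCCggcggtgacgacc
Rps27rt (chr9:114982720-114982759, minus strand): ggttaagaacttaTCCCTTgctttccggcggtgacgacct
Rps6 (chr4:86857348-86857387, minus strand): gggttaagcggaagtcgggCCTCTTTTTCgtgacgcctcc

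By this rule, which takes only runs that reach the 11 bases around the start, Rpl36al and Rpl10 had runs of 3 bases and 1 base, and Rpl22l1 and Rps6 runs of 10. Rps27 and Rps27rt, identical in coding sequence, had runs of 9 and 6. In Rpl36al, Rpl10 and Rps27rt a second run of equal length there is not in capitals, and that of Rps27rt begins at the annotated start.

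Mir140 gives rise to miR-140-3p, and miR-140-5p was not analysed here. The mature sequence of miR-140-3p from RefSeq (GRCm38.p6), and the same sequence starting 1 base later, are shown with the seed, bases 2 to 8, in capitals.
mmu-miR-140-3p (chr8:107551288-107551308, plus strand): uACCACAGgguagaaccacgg
mmu-miR-140-3p starting 1 base later (chr8:107551289-107551308, plus strand): aCCACAGGguagaaccacgg

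Matches to these seeds were sought on the sense strand of the 3′UTR annotated as longest for each gene. The site CTGTGGT was present in 9 of 84 tested members, or 10.7%, beside 18.9% of 12963 tested genes with a 3′UTR. The site CCTGTGG, which can overlap it, was present in 5 of 84, or 5.95%, beside 20.1%. The median longest 3′UTR was 156 bases in members and 1145 bases over all these genes. The members with CTGTGGT were Rpl12, Rpl11, Rpl22, Rpl5, Rpl6, Rpl21, Rps15a, Rpl37 and Rps10. Of these 9 limma called 0, beside 3 of the 84 tested members and 16.9% of all genes tested. Of the 9, 1 (Rpl12) had an unadjusted p under 0.05, as had 12 of the 84 and 5821 of the 17177 genes tested. The 5 with CCTGTGG were Rpl11, Rpl22, Rpl28, Rpl13a and Rpl37, with limma adjusted p of 0.492 to 0.897. Whether sites go with a change was not tested. The matches in 3 of the 9, Rpl12, Rpl5 and Rpl22, are shown as examples in GENCODE M21 sequence (GRCm38) with the match in capitals.
Rpl12 (chr2:32964089-32964115, plus strand): ttcagtatggCTGTGGTagcaggatct
Rpl5 (chr5:107908720-107908746, plus strand): gtgtcaggctCTGTGGTactggggcta
Rpl22 (chr4:152333303-152333329, plus strand): gaccacagccCTGTGGTagaatgctag

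A further feature that the rule did not use was position of small nucleolar RNA genes, which guide the modification of ribosomal RNA and often lie in introns of genes for ribosome production. Annotated small nucleolar RNA genes lay inside 30 of 84 tested members, or 35.7%, 58 in all, beside 283 of 17156 tested genes, or 1.65%. Rpl4 held 5 of them and Rpl13a held 4.

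Ribosomal protein genes were read beside lists of other genes of ribosome production and translation. Over all genes tested limma called 10.5% higher and 6.4% lower, with a median log2 fold change of -0.01. Of 48 ribosome biogenesis and nucleolar factors it called 25 higher and 0 lower in Mir140-null (52.1%), with a median log2 fold change of 0.55. Of 34 translation elongation and initiation factors it called 16 higher and 0 lower (47.1%), with a median of 0.44. Of 13 tested genes of RNA polymerase I and its factors (14 listed) it called 4 higher and 0 lower (30.8%), with a median of 0.38, and of 26 regulators of ribosomal protein synthesis 8 higher and 0 lower (30.8%), with a median of 0.36. The lists were chosen with earlier results of these data known, and whether they differ from the ribosomal protein genes was not tested.

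These counts depended on single libraries. Without the library labelled Mir140-null replicate 2, limma called 8 biogenesis factors, 4 translation factors, 1 gene of RNA polymerase I and 4 regulators higher. Over all 8 leave-one-out fits the counts ran from 6 to 26, 4 to 18, 1 to 6 and 3 to 8, and the lowest for each came without wild-type replicate 3, with the same low count without the library labelled Mir140-null replicate 2 for the translation factors and RNA polymerase I. Without Mir140-null replicates 1 and 2, an alternative chosen after seeing the data because those 2 libraries had the fewest genes at 0.5 TPM or more, the counts were 3, 2, 0 and 2. The 4 lower counts were 0 in each of these fits, and median-ratio scaling gave 13, 7, 2 and 5 higher. TPM over protein-coding genes outside the mitochondrial genome gave 25, 17, 4 and 9 higher.

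**Figure D4:**
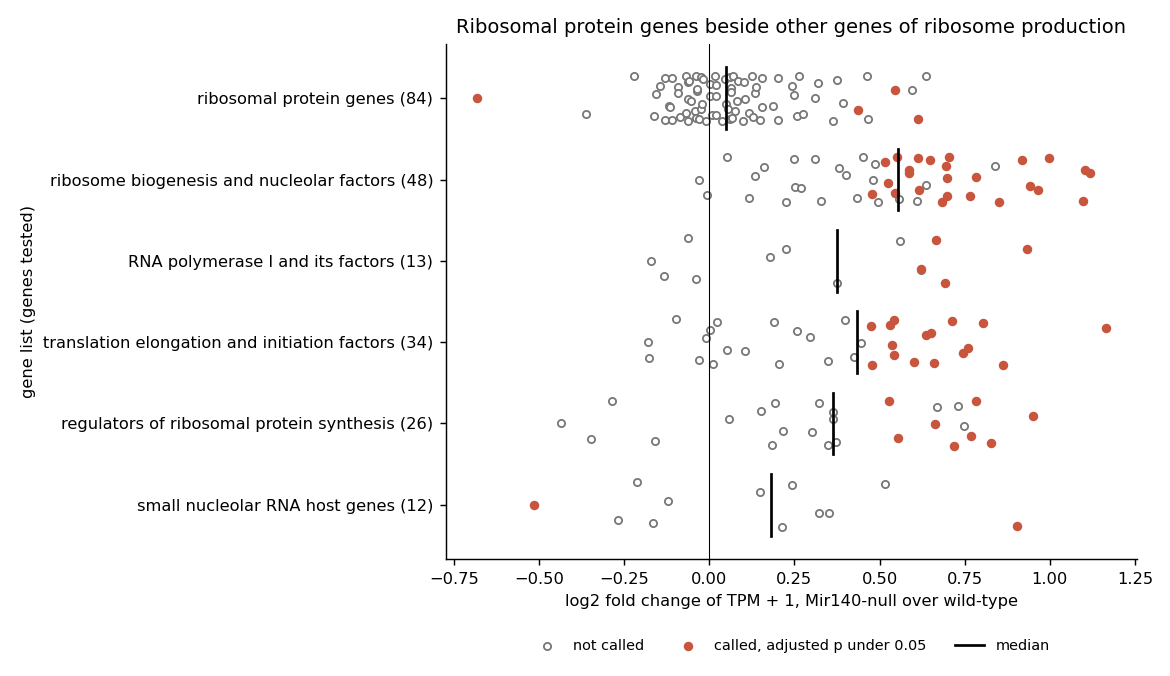
Log2 fold change of TPM + 1, Mir140-null over wild-type, of each tested ribosomal protein gene and of each tested gene of 5 other lists (rows, with the number tested), filled where the limma adjusted p was under 0.05 (Rpl39l, the filled point below 0 in the top row, had to differ). The medians were 0.05 for ribosomal protein genes and 0.55 for ribosome biogenesis factors.

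Among biogenesis factors, Gar1 is part of the particle that makes pseudouridine. It had 31.2, 36.0, 34.2 and 41.6 TPM in wild-type and 83.7, 64.3, 65.5 and 65.2 TPM in Mir140-null (log2 fold change 0.94, limma adjusted p of 0.00680). The groups did not overlap, and Mir140-null replicate 1 stood highest. Dkc1, the enzyme of that particle, had 9.88, 16.6, 11.3 and 15.1 TPM in wild-type and 31.8, 30.5, 30.8 and 24.8 TPM in Mir140-null, without overlap (log2 fold change 1.12, limma adjusted p of 0.00898).

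Eif6 keeps the large subunit from joining too early. It had 89.0, 125, 91.9 and 110 TPM in wild-type and 288, 224, 224 and 200 TPM in Mir140-null, without overlap (log2 fold change 1.16, limma adjusted p of 0.00619). Eif4g2, a scaffold of cap-independent initiation, had 552 to 579 TPM in wild-type and 746 to 893 TPM in Mir140-null, without overlap (log2 fold change 0.54, limma adjusted p of 0.0100). The most abundant gene of this list, Eef1a1, had a mean of 7328 TPM and a log2 fold change of -0.01, and was picked after its values were seen.

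Rrn3, which brings RNA polymerase I to its promoter, had 10.6, 10.5, 9.46 and 10.4 TPM in wild-type and 14.3 to 18.2 TPM in Mir140-null, without overlap (log2 fold change 0.67, limma adjusted p of 0.0114). Ubtf, an upstream binding factor of the same polymerase, had 15.4 to 16.9 TPM in wild-type and 21.1 to 30.2 TPM in Mir140-null, without overlap (log2 fold change 0.62, limma adjusted p of 0.0190). Eif2ak3, a kinase that lowers initiation under stress in the endoplasmic reticulum, had 12.2, 12.8, 12.3 and 14.0 TPM in wild-type and 28.9, 25.5, 24.3 and 24.3 TPM in Mir140-null, without overlap (log2 fold change 0.95, limma adjusted p of 0.00454). Larp1, which binds messenger RNAs of this family, had 10.3 to 12.0 TPM in wild-type and 17.7 to 23.1 TPM in Mir140-null, without overlap (log2 fold change 0.78, limma adjusted p of 0.00852).

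Of 12 tested small nucleolar RNA host genes (15 listed), limma called 1 higher, Epb41l4aos, and 1 lower, Snhg18, or 16.7% beside 16.9% over all genes tested, with a median log2 fold change of 0.18. Epb41l4aos had 24.3, 26.4, 27.4 and 27.3 TPM in wild-type and 59.0, 67.1, 40.6 and 39.0 TPM in Mir140-null, without overlap (log2 fold change 0.90, limma adjusted p of 0.0179). Snhg18 had 40.0, 31.0, 33.1 and 34.4 TPM in wild-type and 20.9, 23.9, 26.3 and 24.5 TPM in Mir140-null. It fell by 0.51 on the log2 scale (limma adjusted p of 0.0245) without overlap, and was not called without wild-type replicates 1, 3 or 4, Mir140-null replicate 1 or the library labelled Mir140-null replicate 2.

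Fau and Rack1, ribosomal subunit genes outside the symbol rule, were also tested, and limma called neither. Near-identical copies were sought for members only, so the values of both are for the genes alone. Fau, a small-subunit protein fused to a ubiquitin-like one, had 30.4, 32.4, 36.7 and 31.4 TPM in wild-type and 61.7, 65.4, 29.9 and 45.7 TPM in Mir140-null, with Mir140-null replicate 3 below every wild-type library (log2 fold change 0.56, limma adjusted p of 0.135). Rack1, a scaffold on the small subunit, had a log2 fold change of 0.12 and a limma adjusted p of 0.451.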

How the data were processed

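The authors quantified the reads with Salmon on mm10 after FastQC 0.11.7 and deposited TPM per Ensembl gene, 1 file per library. The labels give a lower limit of reads per library; TPM do not hold the exact depth, so the counting precision of each value is unknown. Identifiers listed on several lines were counted once, and 99.8% of 52325 were found in GENCODE M21.

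Libraries were grouped by genotype as labelled. Genes with at least 0.5 TPM in 4 or more libraries were fitted with limma 3.58.1 in R 4.3.3 on log2(TPM + 1) with genotype, empirical Bayes with a trend and Benjamini-Hochberg adjustment over 17177 genes, and called at an adjusted p under 0.05. The fits were tested on simulated data. Sums, sequence features and figures came from Python 3.11.15. Copies were found with blastn 2.17.0 on the coding sequence of the APPRIS principal transcript. The longest coding sequence was used first, found 892 copies, and was replaced after its results were seen because for some members it was longer than the principal one; both are given as alternatives. Each copy was assigned to the member it matched best, and its TPM were added there.

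The members and lists were chosen with earlier results of these data known. Named genes were the called members, the 3 highest and 3 lowest by level, the stalk genes, members known from disease or patterning, signalling or fusion members, paralogues with partners, members beside the filter, the 2 called genes of smallest p in each direction per list, Fau, Rack1, Mir140 and Wwp2. Some other genes, Rpl12, Rpl15 and Rpl8 among them, were named outside this rule. Alternatives changed the pseudocount, filter, scaling, covariates, weights, handling of copies and libraries included. miR-140-5p and protein sequences were not used here. Some genes of the lists are not reported here.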

Additional observations from a re-analysis of the deposited data

Results flagged for a closer look

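In 164 groups of 4 libraries, each library's distance to the nearest other was compared with the range of its group, and 11 values, from 4 of the 8 libraries, stood far from the other 3 of their group. Chance alone marks a library in about 1 in 20 groups.

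Mir140-null replicate 1 stood far above the other 3 Mir140-null libraries for Rps27rt (3014 TPM beside 2284 to 2395), for Gar1 (83.7 TPM beside 64.3 to 65.5), and, with copies added, for Rps27a (1409 TPM beside 1141 to 1171) and Rpl36a (1950 TPM beside 1644 to 1683). It also stood far above them in the summed TPM of small-subunit members (38300 beside 31501 to 32618) and of members with near-identical copies (175065 beside 150885 to 152471), and far below them in the skeletal muscle markers (34.6 TPM beside 56.2 to 59.8). This library is 1 of the 2 with the fewest genes at 0.5 TPM or more, and why it stood apart was not tested.

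The library labelled Mir140-null replicate 2 stood apart for Mir140, at 8.86 TPM beside 0 in the other 3. Mir140-null replicate 4 stood apart for Rpl10l, at 0.0599 TPM beside 0. Wild-type replicate 3 stood far below the other wild-type libraries for Rrn3 (9.46 TPM beside 10.4 to 10.6) and for the summed chondrocyte markers (62316 TPM beside 76133 to 77598). No cause was tested for any of these.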

How the results depend on the processing

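The starting values were 3 ribosomal protein genes called higher, 1797 and 1100 of all genes, and 55 called genes in the 6 lists. Rpl39l, which only its wild-type libraries carried past the filter, is not counted as called. The median log2 fold change of ribosomal protein genes (0.05) ran from -0.04 to 0.07 over the alternatives. It was below 0 with a factor from genes outside the 5000 of smallest p, sample quality weights, near-identical copies by either coding sequence, without wild-type replicate 1, without Mir140-null replicate 1, and without Mir140-null replicates 1 and 2. The log2 ratio of their summed TPM (0.01) was set beside 13 alternatives and moved by less than the spread within the Mir140-null libraries, the wider group on that scale, with values from -0.06 to 0.04; it was below 0 with near-identical copies added, without wild-type replicate 1, without Mir140-null replicate 1, and without Mir140-null replicates 1 and 2.

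Without a filter the counts were 1 member higher, 977 and 539 genes and 26 list genes, over 36617 genes tested in place of 17177. With a mean of at least 5 TPM, 605 genes were lower. Median-ratio scaling gave 1 member higher and 29 list genes, and quantile normalization 36 list genes. For these and the settings below the cause was not tested, except that fewer libraries were used where libraries were left out.

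The replicate block, with replicate number pairing the groups, gave 0 members, 671 and 454 genes and 13 list genes. Nothing in the values marked the numbers as pairs, since same-number libraries correlated at -0.01 to 0.07 after removing group means, 0 of 4 over 0.1, and 2 of 8 libraries correlated best with their own number.

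A factor from residuals gave 8 members higher and 2016 genes lower. A factor from genes outside the 5000 of smallest p gave 0 members, 979 and 426 genes and 22 list genes. Adding near-identical copies, by principal or by longest coding sequence, gave 1 member higher. Without Mir140-null replicates 1 and 2, 0 members, 357 and 210 genes and 8 list genes were called. Adding copies, by either coding sequence, and leaving out Mir140-null replicates 1 and 2 were alternatives chosen after seeing the data.

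Leaving out 1 library at a time gave 0 to 4 members higher, 779 to 1553 and 419 to 1214 genes, and 15 to 56 list genes.

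Of 989 log2 fold changes of 45 named genes under 22 alternatives, 915 kept their direction and side of the threshold or moved within the spread, 57 lost the call, 9 gained one, 8 moved by more than the spread and 0 reversed a call. Rpl39l is among the 45, so this tally, unlike the counts of members above, includes it. Of the 132 list counts that started above 0, 76 stayed within 1.5 times the starting count.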
